A study of Mus musculus with 2 samples.

Results

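Cycling CD8 T cells are killer T cells caught while they copy their DNA or divide, and 1541 of 19999 filtered immune cells from mouse liver metastases were such cells by the rule used here, 1129 of 9814 in Ctrl and 412 of 10185 in KD. Single-cell 3' RNA sequencing had been run on CD45+ cells of liver metastases that grew in C57BL/6 mice, aged 6 to 8 weeks, in the 2 weeks after intrasplenic injection of MC38-LM3b, a liver-metastatic derivative of the mouse colon cancer line MC38. In Ctrl the tumor cells carried the hairpin shScramble, and in KD the hairpin shSLAMF3, against the receptor SLAMF3 (gene Ly9). The hairpin was in the injected tumor cells, so the T cells and all other host cells of both groups were unmodified. Each group was 1 library, for which lesions of 3 mice were pooled and enriched with a CD45 positive selection kit, so there was no replicate, no test was made, and every interval is a 95% interval that covers counting error only.

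A cell was a member when it held at least 2 UMIs (unique molecular identifiers, 1 per captured transcript) of Cd3d, Cd3e and Cd3g together, at least 1 of Cd8a and Cd8b1, none of Cd4, Csf1r and Cd79a, and at least 3 UMIs of the 5 cycle genes Mki67, Top2a, Birc5, Pclaf and Cdk1. CD8 T cells that met every other condition but held fewer than 3 cycle UMIs, 1476 in Ctrl and 675 in KD, are called non-cycling. The members were thus selected on the UMIs of these lineage and cycle genes, and the levels of those genes are given as a description. Members held a median of 19 cycle UMIs in Ctrl and 21 in KD, and at most 89 and 86. Just inside the limit lay 97 Ctrl and 35 KD cells with exactly 3 cycle UMIs, and just outside it lay 185 and 54 cells with 2. CD8 T cells with none numbered 861 and 487. Another 17 Ctrl and 8 KD CD8 T cells exceeded the upper limits of 30000 UMIs or 6000 genes, and all of them held 3 or more cycle UMIs.

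A T cell that has met its antigen leaves quiescence, passes the G1/S boundary, licenses and fires its replication origins, and then builds a mitotic spindle. Factors of the E2F family switch on many replication genes at the G1/S boundary, whereas the genes of G2 and mitosis are largely controlled through CCAAT boxes, which bind NF-Y, and through the cell cycle homology region, TTTGAA. In tumors, chronically stimulated CD8 T cells pass from a TCF-1-positive progenitor state, which renews itself, through a proliferating state to a terminally exhausted state with PD-1 and TIM-3. Granzymes are the proteases that these cells release into their targets.

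Words of both control systems were counted in the promoters of cycle genes. Of the gene lists used below, 40 of 49 DNA replication genes and 46 of 55 mitosis genes had an entry in the RefSeq promoter table (GRCm38.p6). In the 250 bases before the start, on either strand, an E2F word (TTTCGCGC or TTTGGCGC) stood in 17.5% of the replication genes, 2.17% of the mitosis genes and 0.759% of all 27025 genes of the table. TTTGAA stood in 17.5%, 30.4% and 18.3%, and 2 or more CCAAT words in 35%, 43.5% and 11.5%, in the same order. The promoters of 4 genes are printed because they belong to genes that chose the members (Top2a, Mki67, Cdk1) or that represent the replication genes (Mcm5). Each is the 230 bases before the start, 5′ to 3′ on the strand of the gene, and capitals mark the CCAAT words, the E2F words and the words of the homology region, all read on either strand.
Top2a, chr11:99024190-99024419, minus strand: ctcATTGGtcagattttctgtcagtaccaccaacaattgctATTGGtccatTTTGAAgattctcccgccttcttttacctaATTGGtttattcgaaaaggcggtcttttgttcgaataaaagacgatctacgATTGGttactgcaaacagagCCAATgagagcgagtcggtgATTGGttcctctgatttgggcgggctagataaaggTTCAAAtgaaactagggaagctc
Mki67, chr7:135716380-135716609, minus strand: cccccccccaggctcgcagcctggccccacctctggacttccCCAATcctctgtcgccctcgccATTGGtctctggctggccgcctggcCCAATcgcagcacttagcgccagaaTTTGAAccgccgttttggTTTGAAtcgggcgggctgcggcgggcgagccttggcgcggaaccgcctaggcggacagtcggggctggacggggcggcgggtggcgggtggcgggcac
Cdk1, chr10:69352913-69353142, minus strand: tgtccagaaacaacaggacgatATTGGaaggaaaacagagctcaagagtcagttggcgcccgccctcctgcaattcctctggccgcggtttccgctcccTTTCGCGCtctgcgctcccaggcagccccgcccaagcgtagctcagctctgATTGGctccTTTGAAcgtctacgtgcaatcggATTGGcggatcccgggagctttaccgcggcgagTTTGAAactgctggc
Mcm5, chr8:75109279-75109508, plus strand: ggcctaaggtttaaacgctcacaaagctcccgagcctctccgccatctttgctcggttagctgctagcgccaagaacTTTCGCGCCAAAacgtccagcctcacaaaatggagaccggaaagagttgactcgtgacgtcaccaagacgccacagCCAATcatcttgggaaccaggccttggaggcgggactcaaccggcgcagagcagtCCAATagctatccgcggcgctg
Top2a held 6 CCAAT words and 2 words of the homology region, and Mki67 held 3 and 2. Cdk1 held 3 and 2 with 1 E2F word, and Mcm5 held 2 CCAAT words and 2 E2F words that overlap each other. These matches describe letters in a window, and binding was not measured.

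The label was checked against genes outside the rule. Trbc2, a constant segment of the T cell receptor beta chain, had UMIs in 1112 of 1129 Ctrl and 406 of 412 KD members. Cd40lg and Foxp3, markers of CD4 T cells, came to 3 and 4 UMIs over all members, and Ncr1 and Klrb1c, markers of NK cells, to 9 and 8. The 5 gamma-delta T cell markers summed to 754 UMIs in 30.6% of Ctrl members and 327 UMIs in 34.5% of KD members, mostly Trgc2 (509 and 310 UMIs), whereas Trdc, the constant segment of the delta chain, had 12 UMIs in Ctrl and 0 in KD. Trgc1 had 221 and 8 UMIs, so the libraries differed in this gene. Members were larger in RNA content than non-cycling CD8 T cells, with a median of 11484 UMIs and 3534 genes per cell in Ctrl and 10290 UMIs and 3257 genes in KD, against 5507.5 and 5184 UMIs in non-cycling cells. The members summed to 13677231 UMIs in Ctrl and 4582989 in KD. Of the filtered cells, 24 barcodes occurred in both libraries, and 3 Ctrl and 2 KD members were among them, none as a member in both.

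RNA of other cell types was present in the members and differed between the libraries. The 4 neutrophil markers S100a8, S100a9, Csf3r and Retnlg summed to 688 UMIs in 228 Ctrl members (20.2%) and to 8759 UMIs in 289 KD members (70.1%), and 10 cells held 87.6% of the KD sum. The 9 macrophage markers summed to 2995 and 1435 UMIs, the B cell markers to 1525 and 603, and the 4 endothelial markers Stab2, Kdr, Pecam1 and Clec4g to 587 and 583, with 72.9% of the KD endothelial sum in 10 cells. Hepatocyte, Kupffer cell and erythroid markers were near 0, at 9, 10 and 15 UMIs in Ctrl and 2, 11 and 3 in KD. Other-lineage UMIs are those of the macrophage, B cell, neutrophil, dendritic, endothelial, hepatocyte and tumor-like or fibroblast-like markers, without Kupffer and erythroid markers. Members with 10 or more of them made up 7.26% of Ctrl and 16% of KD members. The part of these members in the results below was not tested. Values without these cells, which leave 1047 Ctrl and 346 KD members, are given for some of the results only.

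Cycling cells formed a somewhat smaller part of the CD8 T cells in KD. They made up 43.3% (41.4 to 45.3) of 2605 CD8 T cells in Ctrl against 37.9% (35.0 to 40.9) of 1087 in KD, which is -5.44 percentage points (-8.92 to -1.91). When every cell was first thinned to 1500 UMIs and then sorted by the same rule, the shares were 18.9% and 16.9%, and the interval of their difference held 0 (-2.05, -5.80 to 1.94). Over all T cells the gap was wider, at 32.6% for Ctrl and 18% for KD (-14.7 points), and CD8 T cells were 75.3% and 47.4% of all T cells. Of all filtered cells, 11.5% and 4.05% were members.

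**Figure D1:**
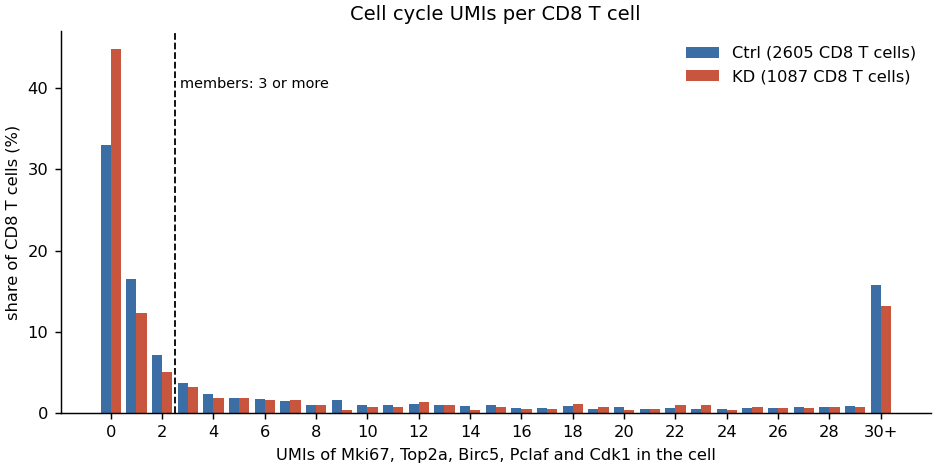
Share of CD8 T cells in percent (vertical axis) by UMIs of the 5 cycle genes per cell (horizontal axis, 30 or more pooled) for Ctrl in blue and KD in red, with a dashed line at the limit of 3 UMIs. The shares fall without a gap across the limit, from 185 Ctrl and 54 KD cells at 2 UMIs to 97 and 35 at 3.

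Other immune classes, sorted by the same 3 cycle UMIs, had smaller cycling shares. Among CD4 T cells 33 of 156 cycled in Ctrl (21.2%) and 64 of 424 in KD (15.1%), and the interval of the difference held 0 (-14.0 to 1.13 points). Among macrophages it was 190 of 1237 (15.4%) and 88 of 1463 (6.02%), or -9.34 points (-11.8 to -6.96). NK cells had 3 of 79 (3.8%) and 11 of 105 (10.5%), a difference whose interval held 0 (-1.92 to 14.8). B cells had 1.28% and 0.678%, and neutrophils had 0 of 270 in Ctrl, which allows a share of up to 1.11%, and 0.458% in KD. These classes differed in depth, with median UMIs per cell from 2425.5 in Ctrl neutrophils to 8612 in KD macrophages. With every cell first thinned as for the CD8 T cells above, NK cells had 1 of 77 (1.3%) and 10 of 105 (9.52%). The interval of this NK difference, 8.23 points, then left out 0 (0.714 to 15.6), on few cycling cells. After thinning, the CD4 T cell interval still held 0 (-7.16 to 3.33), and the macrophage interval still left it out (-5.66 to -2.51).

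Against non-cycling CD8 T cells, the contrast that the rule itself used, 899 of 9383 genes were at least 1.5-fold higher in both libraries with intervals that left out 0 (9.58%), and 506 were lower (5.39%). These values describe the contrast that chose the members and were given no test. All 25 genes of origin licensing, 23 of 24 of DNA synthesis, 20 of 22 of mitotic control and 33 of 33 of the spindle were among the higher genes. Hmmr, a spindle-associated receptor for hyaluronan, was at 89.5 CPM, which here means UMIs per 1000000 UMIs of the class, in Ctrl and 89.7 in KD members, against 0.795 and 1.54 in non-cycling cells. Ccna2, which encodes cyclin A2, was at 137 and 139 CPM against 2.5 and 2.82, and Plk1, a mitotic kinase, at 52.5 and 42.5 against 0.908 and 0.257. Mcm5, a subunit of the replicative helicase, was at 93.7 and 89.0 CPM against 30.2 and 23.9.

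Genes of the progenitor state were low in the members. All 11 progenitor genes measured in that contrast were lower in both libraries, and Tcf7, which encodes TCF-1, was at 11.1 CPM in Ctrl and 30.1 in KD members against 51.5 and 144 in non-cycling cells. Of 17 genes of quiescence and cell cycle brakes, 6 were lower and 3 higher in both libraries. Ccl5, a chemokine of effector and memory T cells, was at 1392 and 3030 CPM against 5533 and 6540. Mxd4, an antagonist of MYC, stood at 29.8 and 30.8 CPM against 64.9 and 66.3, and the interferon-inducible Ifi213 at 13.5 and 10.0 against 42.8 and 40.6. Of 17 exhaustion genes, none was 1.5-fold higher or lower in both libraries, with Pdcd1, which encodes PD-1, at 240 and 212 CPM in members and 270 and 185 in non-cycling cells.

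Few genes of the cell cycle program differed between KD and Ctrl members. Over all 10936 genes with at least 50 UMIs, the median log2 ratio of KD over Ctrl was -0.03, 581 genes were called higher (5.31%) and 408 lower (3.73%), where a call needs a 1.5-fold difference and an interval that leaves out 0. Among the lists of origin licensing, DNA synthesis, mitotic control, spindle and chromatin, 1 of 120 genes was called, Gins1, a subunit of the GINS complex of the replicative helicase, at 21.9 CPM in Ctrl against 14.2 in KD (log2 ratio -0.62, -1.03 to -0.23). The medians of the 5 lists lay between -0.04 and 0.10. Top2a, at 519 CPM in Ctrl and 558 in KD, and Mki67, at 293 and 345, are genes of the rule and serve as a description only. Pcna was at 394 and 404 CPM, and Cenpf at 135 and 139. Members of both libraries were selected on cycle UMIs, so the levels of cycle genes compare cells chosen alike. None of 19 DNA repair genes and none of 15 nucleotide synthesis genes was called.

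Position within the cycle differed little. In members thinned to 3000 UMIs, genes of mitosis made up 49.5% of the UMIs of replication and mitosis genes in Ctrl and 51.6% in KD, with the genes of the rule left out. The difference of 2.08 points was 0.887 without the cells holding 10 or more UMIs of other lineages and turned to -0.99 without those holding 3 or more. Each of these values came from a random draw of its own. Per cell the median was 46.7% and 45.5%. The measure is a range and not a division into phases, and 25.5% of Ctrl and 24.0% of KD members lay in the middle, between 40% and 60%.

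Histone genes were the exception in the cycle program. Of 54 measured, 5 were called higher and 6 lower in KD, beside 5.31% higher and 3.73% lower over all genes. Without the cells holding 10 or more other-lineage UMIs, 7 of 53 were higher and 4 lower, beside 286 and 438 of all 10427 genes. H2ac24 had 8427 UMIs in Ctrl against 1374 in KD (616 and 300 CPM, log2 ratio -1.04, -1.12 to -0.96), H2ac8 had 4222 and 818 (309 and 178 CPM, -0.79, -0.90 to -0.68), and H3c2 had 275 and 33 (20.1 and 7.2 CPM, -1.48, -2.05 to -0.96). In the other direction H2bc4 had 642 and 379 UMIs (0.82, 0.63 to 1.00), and H1f3, which encodes a linker histone, 864 and 472 (0.71, 0.54 to 0.87). Replication-dependent histone genes are near-identical copies with transcripts that mostly lack a poly(A) tail, so single members of the family are uncertain in poly(A)-primed counts.

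Granzymes differed between KD and Ctrl members in both directions. Gzma, which encodes granzyme A, had 2450 UMIs in Ctrl against 10090 in KD (179 and 2202 CPM, log2 ratio 3.62, 3.56 to 3.68). It was found in 174 of 1129 Ctrl members (15.4%) and in 184 of 412 KD members (44.7%), and 126 KD members held 10 or more Gzma UMIs against 44 in Ctrl. The top 10 cells held 49.6% of the Ctrl UMIs and 25.1% of the KD UMIs. The KD level thus came from many cells.

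At a fixed depth of 3000 UMIs per cell, which left out 12 Ctrl and 5 KD members, Gzma was detected in 9.94% (8.25 to 11.8) of Ctrl and 39.6% (34.8 to 44.5) of KD members, 29.6 points apart (24.5 to 34.8). Of B cells, which should lack the gene, 0 of 61 in Ctrl, which allows up to 4.92%, and 3.83% of 209 in KD held a Gzma UMI at that depth. Before thinning it was 2.56% and 3.90% of B cells, whose median depth was 2694 and 2723.5 UMIs. Non-cycling CD8 T cells showed a smaller gap, with 17.8% in Ctrl and 33.5% in KD and a log2 ratio of 2.06 (2.00 to 2.11) in CPM. Both Gzma and Pdcd1 were detected in 4.66% of Ctrl and 17.4% of KD members, and Gzma without Pdcd1 in 5.28% and 22.1%.

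The granzymes encoded beside Gzmb went the opposite way. Gzmc had 1703 UMIs in Ctrl against 33 in KD (log2 ratio -4.11, -4.66 to -3.62), Gzme 1461 and 23 (-4.41, -5.07 to -3.82), Gzmd 1243 and 65 (-2.68, -3.06 to -2.32) and Gzmf 1966 and 259 (-1.35, -1.54 to -1.16). Gzmg had 63 UMIs in Ctrl and 1 in KD, with an interval from -9.73 to -1.87. These genes are close relatives, so UMIs may be split between them, and their sum is the firmer value: 6436 UMIs in 272 Ctrl members (24.1%) against 381 UMIs in 17 KD members (4.13%), of which 1 cell held 285. Without the KD member that held most of its UMIs, Gzmf was at -3.11. Serpinb9b, a serpin of the family that inhibits granzymes, was lower too, with 824 and 69 UMIs (-2.0, -2.38 to -1.65). Gzmk, marking a granzyme K state, was higher in KD members (1214 and 714 UMIs, 88.8 and 156 CPM, 0.81, 0.68 to 0.95), and in non-cycling cells its ratio was -0.04. Gzmb, the main killing granzyme, was at 909 CPM in Ctrl and 953 in KD members (0.07), and Prf1, which encodes perforin, at 419 and 300 (-0.49), neither past 1.5-fold. Over the 16 cytotoxic genes measured, 2 were called higher and 6 lower, with a median of -0.04. Over all genes 5.31% were called higher and 3.73% lower. The 6 lower genes include the close relatives Gzmc to Gzmg, so they are not 6 separate observations.

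**Figure D2:**
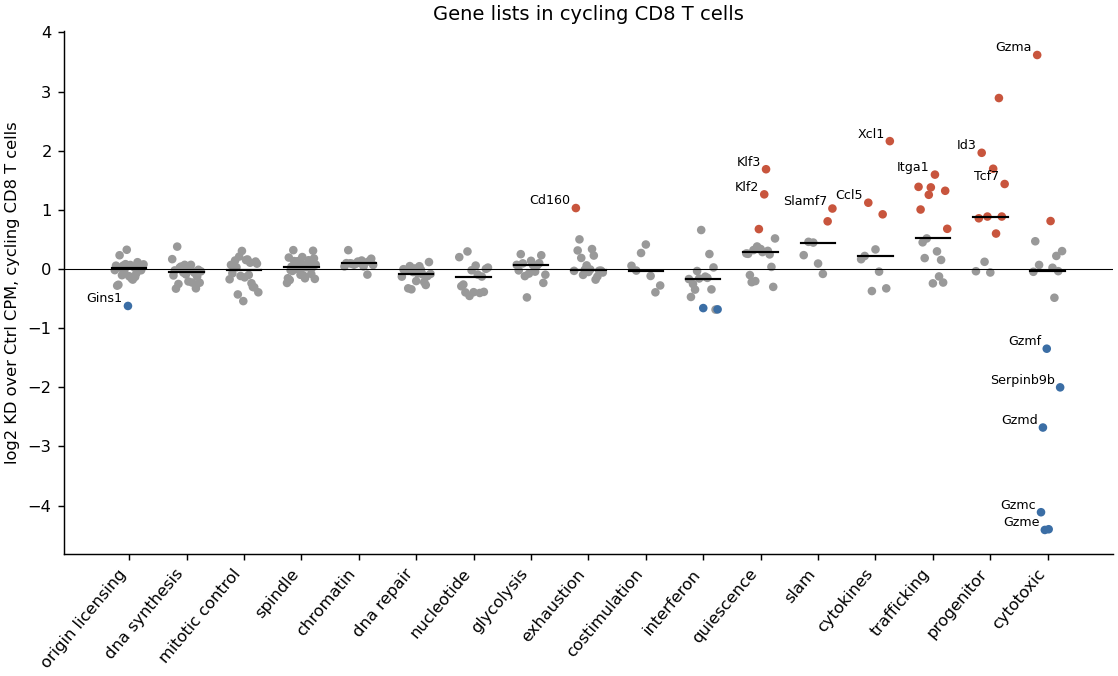
Log2 ratio of KD over Ctrl in cycling CD8 T cells (vertical axis) for each measured gene of 17 lists (horizontal axis), with called higher genes in red, called lower genes in blue, others in grey and each list's median as a bar. The cycle lists cluster at 0, the progenitor list is mostly above it (median 0.89), and the cytotoxic list spreads from Gzme (-4.41) to Gzma (3.62).

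Of 11 progenitor genes measured, 8 were called higher in KD members than in Ctrl members and none lower, beside 5.31% higher over all genes, with a median of 0.89 against -0.03 over all genes. Tcf7 had 152 UMIs in Ctrl against 138 in KD (11.1 and 30.1 CPM, log2 ratio 1.44, 1.09 to 1.78), in 32 cells of each library. Id3, a partner of the progenitor program, had 136 and 178 (9.94 and 38.8 CPM, 1.97, 1.64 to 2.30). These are small numbers of cells, as Tcf7 was found in 2.83% of Ctrl and 7.77% of KD members.

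Of the same list, S1pr1, the receptor for exit from tissue, was at 1.70, Lef1 at 0.89, Slamf6 at 0.89, Ccr7 at 0.86 and Satb1 at 0.60 on the log2 scale. Ccr7 was at -0.84 without the cells of 3 or more other-lineage UMIs, and 10 cells held 64.6% of its KD UMIs. Satb1 fell below the call, at 0.55, without the 1 KD member that held most of its UMIs. Il7r (0.12), Bach2 (-0.04) and Ltb (-0.06) were not called, although Il7r was at 1.47 in non-cycling cells. Without the cells holding 10 or more other-lineage UMIs, 6 of 10 genes were called and the median was 0.76. Among 17 quiescence genes, 3 were called higher, beside 5.31% over all genes. They were led by Klf2, a factor that keeps T cells resting (49.3 and 118 CPM, 1.26, 1.10 to 1.43). The others were Klf3 (1.69) and the CDK inhibitor Cdkn2d (0.68), and Cdkn2d did not pass without those cells. Bcl2, a survival gene, was at 56.0 and 99.9 CPM (0.84, 0.67 to 1.00).

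Among exhaustion genes 1 passed the call in dividing cells, beside 5.31% called higher over all genes. Of 17 measured, 1 was called higher, Cd160 (60.3 and 123 CPM, log2 ratio 1.03, 0.87 to 1.19), and the median was -0.01. Pdcd1 was at -0.18 (-0.28 to -0.08), Havcr2, which encodes TIM-3, at -0.01, Tox, a factor of the exhausted state, at -0.06 and Lag3 at -0.05. In non-cycling cells the same ratios were -0.55, -0.56, -0.41 and -0.50, and the list median was -0.24. Both Pdcd1 and Havcr2 were detected in 20.5% of Ctrl and 18.2% of KD members at 3000 UMIs (65.2% and 60.9% before thinning), and the interval of the difference held 0 (-2.32 points, -6.72 to 2.39). Its sign differed between settings, but each setting was also thinned by a random draw of its own. The stricter cell filter, which kept 1110 Ctrl and 405 KD members, gave 3.06 points, and no upper limits gave 2.45. Leaving out cells of 3 or more other-lineage UMIs gave 2.49. The effects of the cells kept and of the draw were not separated. No B cell held both Pdcd1 and Havcr2. Non-cycling cells had 23.7% and 14.3%, or -9.45 points (-13.0 to -5.71).

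**Figure D3:**
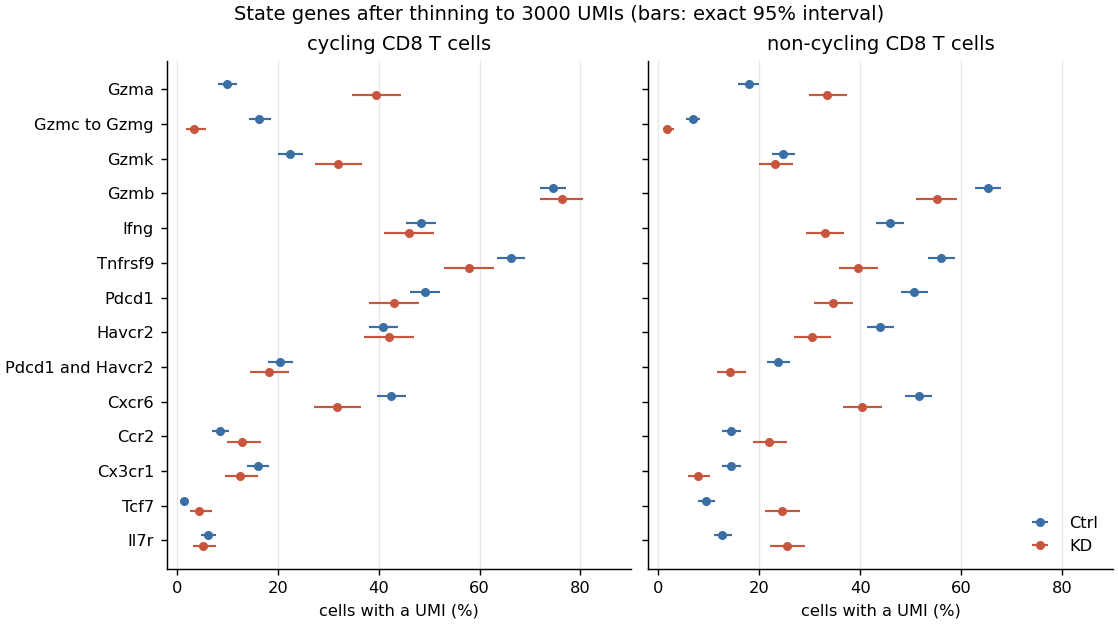
Percent of cells with at least 1 UMI (horizontal axes) of each gene or gene set (vertical axis) in cycling (left) and non-cycling (right) CD8 T cells of Ctrl in blue and KD in red, thinned to 3000 UMIs, with exact 95% intervals as bars. Gzma is detected in 9.94% of Ctrl and 39.6% of KD members, while the share with Pdcd1 and Havcr2 is 20.5% and 18.2%.

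Chemokines and cytokines were higher in KD members for 3 of 9 genes measured, beside 5.31% called higher over all genes. Ccl5 had 19045 UMIs in Ctrl against 13885 in KD (1392 and 3030 CPM, log2 ratio 1.12, 1.09 to 1.15). Xcl1, which attracts XCR1-positive dendritic cells, had 855 and 1283 UMIs (2.16, 2.04 to 2.29), but 10 KD cells held 81.1% of its UMIs and 1 cell held 391. Without that cell Xcl1 was at 1.64. Il10 had 66 and 42 UMIs (0.93, 0.33 to 1.51), and its call was lost without the 1 KD cell that held 9 of them (0.58, -0.07 to 1.2). Without the cells holding 10 or more other-lineage UMIs, 4 of 9 were called higher in members, with Csf2 added. In non-cycling cells, none of 9 was called higher and 4 were lower.

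Ifng, Ccl3 and Ccl4 passed the call in non-cycling cells and not in members. Ifng, which encodes interferon gamma, was at 407 CPM in Ctrl and 395 in KD members (-0.04, -0.12 to 0.03) and at 551 and 259 in non-cycling cells (-1.09, -1.19 to -0.99). The chemokines Ccl3 and Ccl4 were at 0.17 and 0.22 in members and at -1.02 and -0.74 in non-cycling cells. In KD, 10 cells held 49.4% of the Ccl3 UMIs, 27.7% of those of Ccl4 and 32.6% of those of Ifng. Of the 1909 Ccl3 UMIs in KD members, 1 cell held 501, and without it Ccl3 was at -0.27 (-0.35 to -0.18). It was at -0.24 without the cells of 3 or more other-lineage UMIs. Ccl4 was at 0.15 without the KD member that held most of its UMIs, 250 in all. When both classes were limited to cells with a Pdcd1 UMI, Ifng was at -0.13 in members and -0.94 in non-cycling cells, and Ccl3 at 0.30 and -1.14.

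Of 15 homing and adhesion genes, 7 were called higher in KD members and none lower, beside 5.31% higher and 3.73% lower over all genes. Cxcr4 was at 31.6 CPM in Ctrl against 82.3 in KD (log2 ratio 1.38, 1.18 to 1.58), Ccr2 at 29.8 and 59.8 (1.01, 0.78 to 1.23), Cxcr3, the receptor for CXCL9 and CXCL10, at 6.58 and 15.7 (1.26, 0.79 to 1.72) and Itgb7, an integrin of gut homing, at 20.8 and 52.1 (1.32, 1.07 to 1.58). S1pr4 was at 0.68. The calls of Ccr1 (1.39) and Itga1 (1.60) did not hold without the cells with 10 or more other-lineage UMIs, where they were -0.20 and 0.66. Without these cells Cd69 was called higher, and 6 of the 15 genes were. Cxcr6, a receptor of tissue-resident T cells, was detected in 42.5% of Ctrl and 31.7% of KD members at 3000 UMIs, a difference of -10.8 points (-16.2 to -5.24).

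Receptors of the SLAM family, to which the targeted SLAMF3 belongs, were measured in the host's own T cells. Ly9 itself was at 21.3 CPM in Ctrl and 29.0 in KD members (log2 ratio 0.45, 0.14 to 0.75), which bears only on the host cells, as the hairpin was in the tumor cells. Slamf7 was at 42.2 and 85.8 CPM (1.02, 0.83 to 1.21) and Slamf1 at 29.7 and 51.9 (0.81, 0.57 to 1.04), and both were called, the only 2 of 7, beside 5.31% over all genes. The adaptor Sh2d1a, which encodes SAP, was at 324 and 345 CPM.

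Other lists held few calls, to be read beside 5.31% higher and 3.73% lower over all genes. Of 15 interferon-response genes 2 were lower, among them Igtp (30.3 and 19.2 CPM, -0.66), and 4 of 13 were lower without the cells with other-lineage UMIs. Egr2, an early target of receptor signaling, was lower (95 and 13 UMIs, -1.29, -2.25 to -0.45), as the only 1 of 12 signaling genes. Among 11 effector genes Cx3cr1 was lower (-0.61) and Itgam higher (0.77), the latter at -0.12 without those cells and at 0.56, below the call, without the 1 KD member holding most of its UMIs. Of 15 cytokine receptors Il12rb2 was lower (-0.62) and Il6ra higher (1.47, on 29 and 27 UMIs), and without those cells none of the 14 measured was called. Of 76 respiratory chain genes, 5 were lower, among them Atp5l (-1.03) and Ndufs5 (-0.90), while none of 15 glycolysis, 7 costimulation and 7 G1 entry genes was called. Without the cells with 10 or more other-lineage UMIs, Ccnd1 of the 7 G1 entry genes was called lower, as were 4 of 76 respiratory chain genes. Cd6 of 11 signaling genes and Klre1 of 11 effector genes were then called higher.

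**Figure D4:**
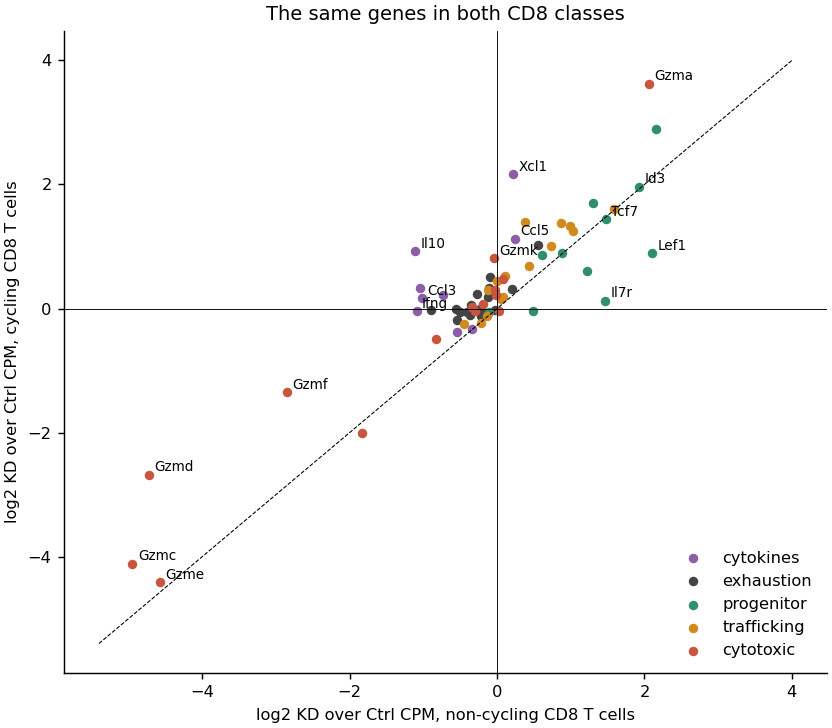
Log2 ratio of KD over Ctrl CPM in non-cycling (horizontal axis) and cycling CD8 T cells (vertical axis) for genes of 5 lists, 1 point a gene colored by list, with equality as a dashed line. Gzma lies at 2.06 and 3.62 and the genes Gzmc to Gzmf are low on both axes, whereas Ifng (-1.09 and -0.04) and Ccl3 (-1.02 and 0.17) lie above the diagonal.

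Across all genes, most of the higher calls were of genes that another immune or endothelial class expresses more. Of the 581 higher genes, 426 (73.3%) lay under 0.2 times the CPM of their highest class, against 48 of 408 lower genes (11.8%) and 13.3% of all genes tested. The 10 highest by the naming rule were all of this kind, such as Stab2 and Lyve1, scavenger receptors of liver sinusoidal endothelium. Stab2 had 81 UMIs in Ctrl and 208 in KD, and 10 cells held 94.7% of the KD count. With endothelial and dendritic cells added to the reference classes, chosen after these values were seen, 155 higher and 360 lower genes remained. In non-cycling cells, which shared neither cells nor UMIs with the members, 614 genes were called higher (6.0%) and 479 lower (4.68%) of 10238. Of 10093 genes measured in both classes, 282 were higher in both, which is 54.8% of those called in members and 51.6% of those in non-cycling cells, and 156 were lower in both (47.3% and 33.2%).

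In that ranking Cd7, an immunoglobulin-family receptor of T and NK cells, had 332 UMIs in Ctrl against 311 in KD members (log2 ratio 1.48, 1.26 to 1.71), in 14.8% and 31.3% of the cells. Rasgrp2, an activator of the integrin switch RAP1, had 335 and 303 (1.43). Atp8a2, a lipid flippase, had 26 and 58 UMIs (2.73, 2.04 to 3.46), and Dapl1 had 78 and 83 (1.67), with 89.7% and 89.2% of its UMIs in 10 cells. Dapl1 was found in 17 Ctrl and 15 KD members.

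Lower in KD were heat-shock genes, named after their values were seen. Hspa1b had 23499 UMIs in Ctrl against 3114 in KD members (log2 ratio -1.34, -1.39 to -1.28), Hspb1 682 and 15 (-3.93, -4.77 to -3.20) and the cochaperone Bag3 1406 and 153 (-1.62, -1.87 to -1.38), whereas the constitutive Hspa8 was at 0.02. The ratio of Hspa1a was -1.25 in members, -1.10 in non-cycling CD8 T cells, -0.66 in CD4 T cells, -0.51 in B cells and -0.68 in macrophages. With 1 library per group, library preparation and group cannot be told apart.

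T cell receptor segments differed between the libraries. Any Trbv segment was read in 549 Ctrl members (48.6%) and 173 KD members (42.0%), and shares are of these cells. Trbv15 was held by 213 cells or 38.8% in Ctrl (34.7 to 43.0) and by 5 cells or 2.89% in KD (0.945 to 6.62). Trbv19 was held by 4.74% in Ctrl (3.12 to 6.86) and 20.2% in KD (14.5 to 27.0), and Trbv2 by 0.364% and 8.09%. Trbv3, at 21.9% and 22.5%, and Trbv12-2, at 9.29% and 9.25%, were close.

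**Figure D5:**
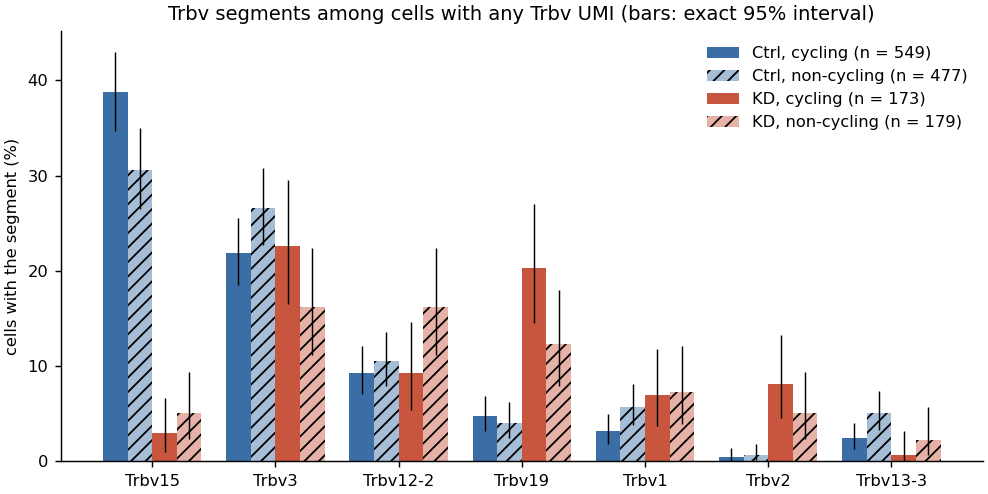
Percent of cells with any Trbv UMI that hold each Trbv segment (vertical axis), in cycling and non-cycling CD8 T cells of Ctrl and KD, with exact 95% intervals as lines. Trbv15 is held by 38.8% of Ctrl and 2.89% of KD members, and Trbv19 by 4.74% and 20.2%.

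The cells with Trbv15 were compared with those holding another segment. Of Ctrl CD8 T cells with Trbv15, 59.3% were members (54.1 to 64.5), against 50.4% of those with another segment (46.5 to 54.2), and Trbv15 was held by 30.6% of non-cycling Ctrl cells. Among Ctrl members, 36.6% of cells with Trbv15 (78 of 213) and 22.6% of cells with another segment (76 of 336) held a UMI of Gzmc to Gzmg, at medians of 12876 and 12071 UMIs per cell. Gzma was in 15.5% and 18.5% of these cells, and a link of Trbv15 with its share was not tested. Each library pooled 3 mice and the receptor was not sequenced in full, so cells of 1 clone, or of 1 mouse, cannot be told apart.

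The share of cells in cycle was also taken within states of the CD8 T cell. State genes were read at 3000 UMIs, but members were sorted on their unthinned cycle UMIs. Among CD8 T cells with Tcf7 at 3000 UMIs, 10.6% were members in Ctrl and 10.5% in KD. With Pdcd1 and Havcr2 it was 41.8% and 45.4%, a difference of 3.61 points (-5.28 to 12.6), and with Tnfrsf9, the activation receptor 4-1BB, 49.5% and 48.9%. Libraries differed for cells with Gzma, of which 111 of 351 (31.6%) cycled in Ctrl against 161 of 370 (43.5%) in KD, 11.9 points apart (4.63 to 19.0). They differed the other way for cells with Il7r, at 28.9% and 11.7% (difference -17.2, -24.7 to -9.23). With the cycle genes thinned too, the shares were 7.75% and 5.26% with Tcf7, 29.6% and 30.1% with Pdcd1 and Havcr2, 25.4% and 33.2% with Gzma (7.89 points, 1.05 to 14.6) and 19.7% and 8.89% with Il7r (-10.8, -17.5 to -3.71).

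Within the members, levels were also compared by position in the cycle. Members with under 40% of mitosis UMIs are called S-leaning (490 Ctrl, 174 KD) and those over 60% G2/M-leaning (367 and 135), with 10885.5 and 12244 UMIs per cell (median) in Ctrl and 9664 and 10748 in KD. Cdkn2d and Cdkn3, inhibitors of cyclin-dependent kinases, were higher in the G2/M-leaning cells by 1.90 and 2.49 on the log2 scale in Ctrl and by 2.20 and 3.04 in KD. Pdcd1 was at -0.03 in Ctrl and -0.31 in KD. Gzma was at -0.31 in Ctrl (-0.45 to -0.17) and 0.93 in KD (0.87 to 0.99), and it was higher in KD among either kind, by 3.17 in S-leaning and 4.41 in G2/M-leaning cells. The ratio of KD over Ctrl differed in sign between S-leaning and G2/M-leaning cells for several genes. With both intervals leaving out 0, these included Gzmf (-4.12 and 0.48), Ccl3 (-0.57 and 0.21) and Ccl4 (-0.19 and 0.59). Smaller changes of sign were seen for Klrd1 (0.14 and -0.19), Ltb (0.24 and -0.19) and Tox (0.09 and -0.16). For Gzmf, a single KD cell held most of the KD UMIs, as given above. Ccr7 was at 1.61, and at -0.85 with an interval from -1.83 to 0.02.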

How the data were processed

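Per the labels and the submitters' processing notes, the authors made the deposited counts with Cell Ranger 7.1.0 on GRCm39, and R 4.4.1 and Seurat 5.1.0 are also named; the deposited values are unnormalized UMI counts per gene and barcode for 1 Ctrl and 1 KD library. The cell filter required 200 or more genes and allowed up to 10% mitochondrial UMIs, 30000 UMIs and 6000 genes. The upper limits were the only guard against doublets, and no doublet caller was run. Members and gene lists were chosen with earlier results of these data known.

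UMIs were summed per class and library and divided by the class total (CPM). With 1 library per group no test was made. A gene with at least 50 UMIs over both libraries was called when KD and Ctrl differed by at least 1.5-fold and the exact conditional binomial 95% interval of the ratio left out 0 on the log2 scale. Shares carry Clopper-Pearson intervals, and differences of shares carry limits combined from them. Where no cell was found, the share said to be allowed is 3 divided by the number of cells, which is not a Clopper-Pearson limit. Genes named were the list genes and the 10 highest and 10 lowest called ratios, and a second ranking with endothelial and dendritic reference classes was added after the values were seen. Thinning drew UMIs without replacement to a fixed number per cell, dropped shallower cells and used a fixed seed. Alternatives covered filters, gates, denominators, count minimums, fold, TMM scaling (edgeR 4.0.16, R 4.3.3) and cells with other-lineage UMIs. Promoters came from the RefSeq table (GRCm38.p6), so no position from the count files (GRCm39) is given. The scripts were tested on simulated data and ran in Python 3.11.15 with numpy 2.4.6, scipy 1.17.1, pandas 2.3.3 and matplotlib 3.10.9. The list symbols (H2afz, H2afx, Ctps1) were not found under those names. The values of a few listed or named genes are not reported here.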

Additional observations from a re-analysis of the deposited data

Results flagged for a closer look

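For 14 of 319 genes compared, the log2 ratio of KD over Ctrl had opposite signs in cycling and non-cycling CD8 T cells with both intervals leaving out 0. The 319 were list genes outside the cycle lists and genes ranked by their ratios in these data, with at least 50 UMIs in each class. They are thus a chosen set, and the share over all genes was not computed. The difference itself (cycling minus non-cycling) was not tested, since each class had 1 library per group. It was 1.19 for Ccl3, 0.96 for Ccl4 and 2.04 for Il10 among the cytokines, and 0.44 for Nr4a2 and 0.50 for Nr4a3, orphan receptors of T cell stimulation. It was 0.83 for the costimulatory receptor Icos, 0.31 for the adaptor Sh2d1a, 0.25 for Gzmb, 0.55 for the inhibitory lectin Klrc1 and 0.67 for the effector factor Zeb2. It was 0.42 for the integrin Itga4, and 0.32 and 0.23 for the glycolysis genes Gapdh and Pkm. For Myc, a transcription factor of growth and G1/S entry, it was -1.05, with 43.1 and 32.9 CPM in cycling cells and a ratio of 0.66 in non-cycling cells. In KD members 10 cells held 49.4% of the Ccl3 UMIs and 57.1% of those of Il10, and 1 cell held 501 of the 1909 Ccl3 UMIs. Without the KD member holding most of its UMIs, the ratio in members was -0.27 for Ccl3, the same sign as in non-cycling cells, and 0.15 for Ccl4. The intervals then held 0 for Il10 (-0.07 to 1.2), Gzmb (-0.01 to 0.10) and Sh2d1a (-0.005 to 0.16). In S-leaning members the ratio was -0.57 for Ccl3 and -0.19 for Ccl4.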

How the results depend on the processing

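No paired analysis was possible because each group had 1 library and the labels give no replicate numbers, and for the same reason no replicate could be left out. The number of genes called higher in KD members (581) was 291 without cells holding 3 or more other-lineage UMIs, 286 without those holding 10 or more (chosen after seeing the data), 197 with at least 200 UMIs, 1192 with no minimum, 298 at 2-fold and 155 with genes under 0.2 of their highest class left out. The number called lower (408) was 182 with at least 200 UMIs and 183 at 2-fold. With the mean of per-cell CPM, 690 genes were at least 1.5-fold lower, but that count used no interval and so is not the same call. In non-cycling cells limited to Pdcd1-positive ones, 259 were higher (614 over all). The difference in the PD-1 and TIM-3 share (-2.32 points) was 3.06 with a stricter cell filter, 2.45 with no upper limits and 2.49 without cells of 3 or more other-lineage UMIs, each thinned by a random draw of its own. Without the latter cells the Gzma difference was 35.4 points (29.6) and the mitosis share difference -0.99 points (2.08), and it was 0.89 without those of 10 or more. Over all T cells as denominator the cycling share differed by -14.7 points (-5.44). Of the named genes, 209 moved beyond their counting interval without cells of 3 or more other-lineage UMIs, 284 stayed within it and 5 called genes turned sign, and without those of 10 or more it was 39, 466 and 2. Without cells of 3 or more other-lineage UMIs Ccr1 was at -1.79, Ccr7 at -0.84, H2bc15 at -0.11, Il6ra at -0.62 and Itgam at -0.75, and without those of 10 or more Ccr1 was at -0.20 and Itgam at -0.12. The cause was not tested. Without the KD member holding most UMIs of the gene (chosen after seeing the data) 10 moved and 498 did not. TMM scaling shifted all ratios alike, by 0.016 on the log2 scale, and so could not show a change of single genes.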
